A study of Mus musculus with 128 samples.

Results

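The genes described here are 37 mouse orthologs of genes on human chromosome 21 (HSA21) that keep 2 copies in 3 trisomic mouse strains, named Dp(16)1/Yey, Ts65Dn and Ts1Cje, which serve as models of Down syndrome. They are the named HSA21 orthologs of mouse chromosomes 10 (MMU10, 25 genes) and 17 (MMU17, 12 genes) with a probe set in all 12 expression tables, 37 of the 21225 probe sets on the array. All 3 models carry extra copies of genes on chromosome 16 (MMU16), and 73 MMU16 genes from Scaf4 to Zbtb21 have 3 copies in every model; these served as the contrast. RNA from whole E15.5 forebrain and from cerebral cortex, hippocampus and cerebellum of adult mice was hybridized to Affymetrix Mouse Gene 1.0 ST arrays, 128 arrays from 65 animals in all.

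Ts1Cje trisomic mice carry a translocation chromosome of MMU12 and distal MMU16 and have 1 copy of a few MMU12 genes. Ts65Dn trisomic mice carry a separate marker chromosome with distal MMU16 and a centromeric piece of MMU17, which runs from Scaf8 to Pde10a and does not hold the MMU17 genes described here. Dp(16)1/Yey trisomic mice carry a Cre-engineered duplication from Lipi to Zbtb21 on MMU16. Each trisomic group was set against its own euploid littermates. Ts1Cje and Dp(16)1/Yey animals came from trisomic males and C57BL/6J females by the labels (the methods also name C57BL/6N females), and Ts65Dn animals from trisomic females and B6EiC3Sn.BLiAF1 males, so the model and the strain background cannot be told apart. The E15.5 groups held 5 trisomic and 5 euploid Ts1Cje embryos, 6 trisomic and 7 euploid Ts65Dn embryos, and 6 trisomic and 6 euploid Dp(16)1/Yey embryos, of both sexes. Every adult group held 5 males aged 6 to 7 months, and the same 30 animals gave all 3 adult regions, so the regions are not independent of each other.

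Human trisomy 21 adds a copy of every gene on HSA21, whereas its mouse orthologs lie on 3 chromosomes and most models triplicate only the MMU16 part. The orthologs on MMU10 and MMU17 therefore keep their normal dose, and their own copy number does not differ between trisomic and euploid animals. The group holds enzymes of sulfur amino acid, vitamin, sugar and lipid metabolism, collagens and immune receptors, RNA-processing factors, signaling proteins, chromatin and meiosis factors, and proteins of the centrosome and of protein turnover.

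The promoters of Cbs, of U2af1 as its neighbour on MMU17 and of S100b as an astrocyte gene are shown, taken from RefSeq (GRCm38.p6), each 300 bases from 250 before to 50 after the annotated start. Cbs encodes cystathionine beta-synthase, which joins homocysteine to serine in the transsulfuration pathway and fell in all 3 adult regions. U2af1, the small subunit of the splicing factor that reads the 3′ splice site, was not called in any fit, and neither was S100b. S100b encodes a calcium-binding protein of astrocytes. Capitals mark 3 motifs, searched on both strands. The GC box was spelled GGGCGG. The CCAAT box was searched by the letters of its name. The E box was spelled CACGTG. Cbs lies at chr17:31637156-31637455 on the minus strand, U2af1 at chr17:31658715-31659014 on the minus strand, and S100b at chr10:76253586-76253885 on the plus strand.
Cbs: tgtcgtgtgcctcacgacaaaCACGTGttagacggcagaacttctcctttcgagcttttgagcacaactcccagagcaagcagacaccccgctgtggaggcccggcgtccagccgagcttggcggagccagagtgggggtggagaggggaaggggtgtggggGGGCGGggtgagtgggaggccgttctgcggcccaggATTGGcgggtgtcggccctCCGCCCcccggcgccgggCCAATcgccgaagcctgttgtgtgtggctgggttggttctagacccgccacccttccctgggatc
U2af1: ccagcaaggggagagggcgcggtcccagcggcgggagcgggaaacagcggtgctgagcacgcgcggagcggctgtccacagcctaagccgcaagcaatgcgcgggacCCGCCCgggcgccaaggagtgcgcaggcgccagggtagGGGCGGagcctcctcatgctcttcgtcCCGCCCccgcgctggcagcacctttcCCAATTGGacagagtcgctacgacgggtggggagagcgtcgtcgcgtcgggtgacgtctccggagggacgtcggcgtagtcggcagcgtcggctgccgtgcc
S100b: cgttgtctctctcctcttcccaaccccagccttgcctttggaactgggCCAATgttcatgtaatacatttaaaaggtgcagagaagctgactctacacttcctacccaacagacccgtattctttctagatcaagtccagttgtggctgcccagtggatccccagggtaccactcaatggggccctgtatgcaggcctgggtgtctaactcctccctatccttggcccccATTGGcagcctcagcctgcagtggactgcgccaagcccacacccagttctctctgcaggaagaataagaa
The Cbs promoter held 2 GC boxes, 2 CCAAT boxes and 1 E box, the U2af1 promoter 3 GC boxes and 2 CCAAT boxes that overlap each other, and the S100b promoter 2 CCAAT boxes and no GC box. The promoter of Agpat3, a member described below with the lipid genes, held 0 of each. Among the 32851 promoters of the same length in the table, 35.7% held a GC box, 37.4% a CCAAT box and 7.15% an E box. Of the 30 members with an entry, 21 held a GC box, 12 a CCAAT box and 3 an E box. Members were counted at 1 start each, whereas the 32851 promoters belong to 27025 genes, some with several starts. These counts and shares are therefore not like for like. U2af1 has 2 starts, and the first listed is shown. A match is a description of the letters and not a binding site.

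Array values are log2 signals, so a difference of 1 is a doubling, and every change is trisomic minus euploid. Array medians lay between 6.45 and 6.68 in the adult tables and between 7.24 and 8.55 in the E15.5 tables, which were normalized separately. Tissue labels were checked with marker lists by the percentile of each probe set within its own array. Cerebellar markers had a median percentile of 100 in the cerebellum tables, and hippocampal markers lay at 79 to 82 in hippocampus. Forebrain progenitor markers lay at 73 to 94 in E15.5 forebrain. Arrays of 6 animals stood apart, with median correlations with the rest of their table down to 0.972, while the lowest among all other arrays was 0.989. They were trisomic embryo 01 of Ts65Dn, trisomic embryo 10 and euploid embryo 13 of Dp(16)1/Yey, the cortex of 1 Ts1Cje euploid animal, and the hippocampus of Ts65Dn trisomic animals 5 and 18. Where a member's animals are listed for one of those comparisons, its change is also given without these arrays. Groups without overlap are described for the listed genes only, and the share over all probe sets is not given.

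Across the 12 comparisons, no member passed a false discovery rate (FDR) of 10%, while between 1 and 39 of the 73 triplicated MMU16 genes rose in each. Calls were made by limma with Benjamini-Hochberg adjustment over all 254700 P values. Over all probe sets, the share called in Ts1Cje was 0.259% in E15.5 forebrain, 0.0424% in cortex, 0.316% in hippocampus and 0.429% in cerebellum. The Ts65Dn shares were 0.264% (E15.5 forebrain), 0.349% (cortex), 0.132% (hippocampus) and 0.297% (cerebellum). For Dp(16)1/Yey these shares were 0.0895% in E15.5 forebrain, 0.00942% in cortex, 0.066% in hippocampus and 0.0188% in cerebellum. The count of 0 of 37 members was near these backgrounds. Of the 73 MMU16 genes with 3 copies, between 1 and 39 were called in a comparison, all of them higher. The lowest count, 1, was in Dp(16)1/Yey cerebellum and the highest, 39, in Ts1Cje hippocampus.

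**Figure D1:**
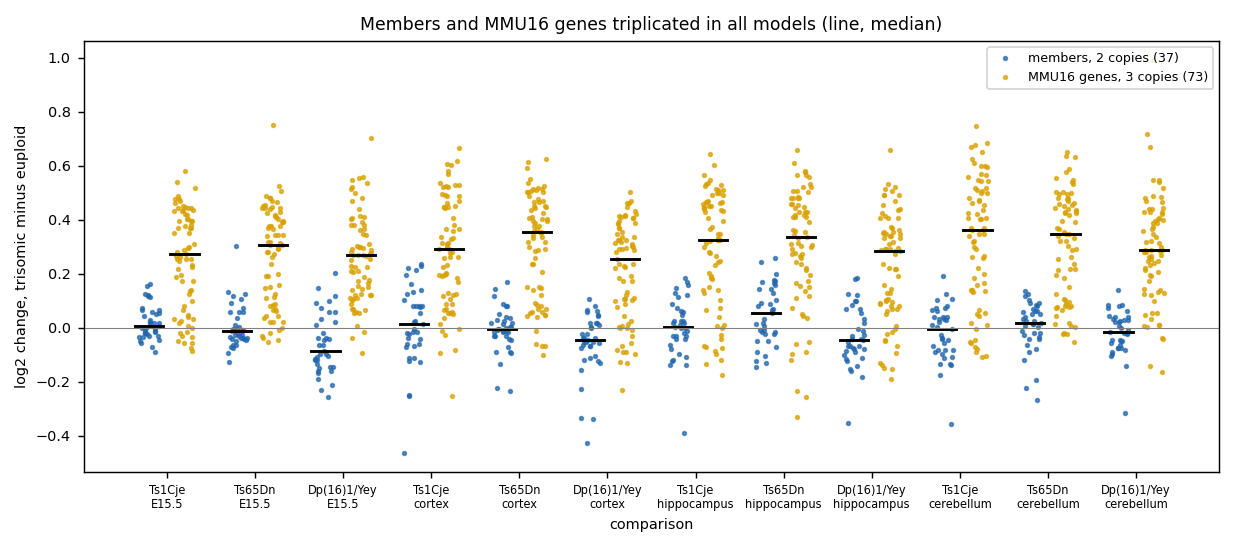
Log2 change (trisomic minus euploid) of the 37 members at 2 copies and of the 73 MMU16 genes at 3 copies in each of the 12 comparisons, with points for genes and black lines for medians. The medians of the members lie between -0.08 and 0.06, and those of the triplicated genes between 0.26 and 0.36.

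The members as a group stayed close to the rest of the genome. Their median log2 change lay between -0.08, in Dp(16)1/Yey E15.5 forebrain, and 0.06, in Ts65Dn hippocampus. With an animal left out these medians ran from -0.11 to -0.0450 and from 0.0231 to 0.0694, and with quantile normalization repeated they were -0.0351 and 0.00658. Over all probe sets the median was 0.01 in Dp(16)1/Yey forebrain, and among the 8409 probe sets above the median signal of every table it was -0.06 there. In Ts65Dn hippocampus the median over all probe sets was 0.03. The medians of the 73 triplicated genes ran from 0.26 in Dp(16)1/Yey cortex to 0.36 in Ts1Cje cerebellum. Single triplicated genes show the scale of a dose effect: averaged over the 3 models, the kinase gene Dyrk1a rose by log2 0.31 to 0.40 in the 4 tissues, Ttc3, a ubiquitin ligase gene, by 0.31 to 0.35, Son, a splicing cofactor gene, by 0.43 to 0.49, Brwd1, a bromodomain gene, by 0.46 to 0.49, and Donson, a DNA replication gene, by 0.40 to 0.51. All 5 were called in all 4 tissues of the averaged fit.

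At an unadjusted P under 0.05, 35 of the 444 member effects passed (7.88%), 18 higher and 17 lower in trisomic animals, against 6.24% of all effects on the array. Ts1Cje had 4 such members in E15.5 forebrain (background 4.39%), 5 in cortex (2.88%), 5 in hippocampus (10.3%) and 2 in cerebellum (9.06%). Ts65Dn had 0 in E15.5 forebrain (4.74%), 3 in cortex (6.07%), 1 in hippocampus (4.69%) and 3 in cerebellum (6.87%). The Dp(16)1/Yey counts were 2 in E15.5 forebrain (5.91%), 3 in cortex (4.86%), 6 in hippocampus (10.1%) and 1 in cerebellum (5.01%). The share was above the background most clearly in Ts1Cje cortex, and in Ts1Cje cerebellum, Ts65Dn forebrain and hippocampus and Dp(16)1/Yey forebrain and cerebellum it was near or below it. Ts1Cje cortex holds 1 array that stands apart, and its count without that array is not given. Without that array the log2 change of Prmt2 went from -0.25 to -0.17, U2af1 from 0.24 to 0.17 and Icosl from 0.22 to 0.18. Pde9a went from 0.22 to 0.20 and Cbs stayed at -0.46. Cbs alone supplied 8 of the 17 lower effects and Pde9a 5 of the 18 higher ones.

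**Figure D2:**
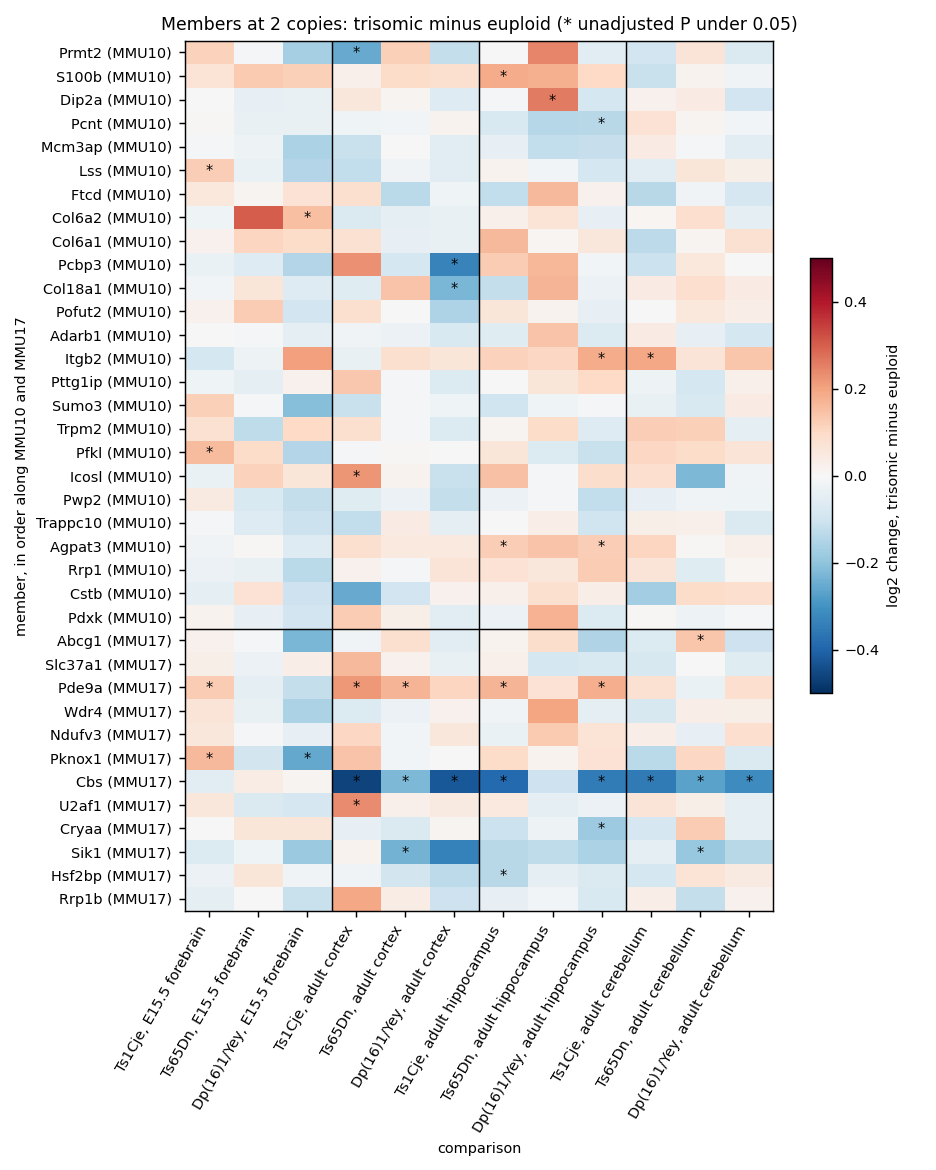
Log2 change (trisomic minus euploid) of each member, in order along MMU10 and MMU17, in the 12 comparisons, with a star where the unadjusted P was under 0.05. The row of Cbs is below zero in all 9 adult comparisons and starred in 8 of them, while no other member has more than 5 stars.

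To ask for a response shared by the models, the change was averaged over the 3 models in each tissue. Cbs fell in all 3 adult regions and Pde9a rose in cortex, and no other member was called. Of all probe sets, 0.509% were called in E15.5 forebrain, 0.547% in cortex, 0.857% in hippocampus and 0.956% in cerebellum. Against these shares, 0 of 37 members were called in E15.5 forebrain, 2 in cortex, 1 in hippocampus and 1 in cerebellum.

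Among the genes of amino acid, vitamin and sugar metabolism, Cbs stood alone. Its log2 change was below zero in each adult region of each model, its averaged fold change lay between 0.774 and 0.823 in the adult regions, and at E15.5 it was near zero. In human Down syndrome CBS is present in 3 copies, whereas in these mice it has 2.

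In the cortex of Ts1Cje, Cbs had a log2 signal of 7.55, 7.60, 7.63, 7.69 and 7.98 in trisomic animals, against 8.06, 8.13, 8.16, 8.17 and 8.23 in euploid animals. Every trisomic animal lay below every euploid one, a log2 change of -0.46 (SE 0.09, limma adjusted P = 0.126), and also -0.46 without the euploid array that stands apart. Ts65Dn cortex had 7.51, 7.54, 7.65, 7.83 and 7.83 in trisomic animals and 7.70, 7.87, 7.91, 7.98 and 8.03 in euploid animals, which overlapped (-0.22, limma adjusted P = 0.723). Dp(16)1/Yey cortex had 7.50, 7.55, 7.56, 7.68 and 7.79 in trisomic animals and 7.64, 8.06, 8.14, 8.18 and 8.19 in euploid animals. Here 1 euploid animal lay among the trisomic ones and the other 4 above them all, with a change of -0.43 (limma adjusted P = 0.373).

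In the hippocampus of Ts1Cje, Cbs had 7.67, 7.74, 7.75, 7.91 and 8.09 in trisomic animals, against 8.04, 8.23, 8.23, 8.30 and 8.31 in euploid animals. Only the highest trisomic animal reached the euploid range (-0.39, limma adjusted P = 0.163). Ts65Dn hippocampus had 7.48, 7.66, 7.72, 7.86 and 7.93 in trisomic animals and 7.80, 7.82, 7.84, 7.84 and 7.86 in euploid animals. The trisomic values were spread on both sides of a narrow euploid range (SD 0.18 against 0.02), with a change of -0.10 (95% confidence interval -0.31 to 0.10, limma adjusted P = 0.889). Without the 2 trisomic arrays that stand apart it was -0.21. Dp(16)1/Yey hippocampus had 7.64, 7.66, 7.73, 7.80 and 7.92 in trisomic animals and 7.85, 8.01, 8.09, 8.23 and 8.34 in euploid animals. Those groups overlapped by 1 animal on each side (-0.35, limma adjusted P = 0.409).

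In the cerebellum the groups were apart in all 3 models. Ts1Cje cerebellum had 7.73, 7.83, 7.90, 7.93 and 7.99 in trisomic animals, against 8.12, 8.20, 8.20, 8.25 and 8.38 in euploid animals (-0.35, limma adjusted P = 0.112). Ts65Dn cerebellum had 7.57, 7.64, 7.66, 7.77 and 7.82 in trisomic animals, against 7.86, 7.92, 7.95, 8.0 and 8.07 in euploid animals (-0.27, limma adjusted P = 0.321). Dp(16)1/Yey cerebellum had 7.82, 7.83, 7.86, 7.91 and 7.97 in trisomic animals, against 8.0, 8.18, 8.21, 8.26 and 8.33 in euploid animals (-0.32, limma adjusted P = 0.301). Not one trisomic value reached the lowest euploid value of its model in this region.

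At E15.5 the groups lay on top of each other. Ts1Cje forebrain had 9.18, 9.30, 9.38, 9.40 and 9.41 in trisomic embryos and 9.26, 9.31, 9.45, 9.46 and 9.48 in euploid embryos (-0.06). Ts65Dn forebrain had a lowest, median and highest value of 7.15, 7.19 and 7.33 in trisomic embryos and 6.94, 7.19 and 7.49 in euploid embryos (0.04). Dp(16)1/Yey forebrain had 7.73, 7.85 and 7.98 in trisomic embryos and 7.74, 7.81 and 7.95 in euploid embryos (0.01). The ranges overlapped in all 3 models, and without the embryos that stand apart the changes were 0.05 in Ts65Dn and -0.02 in Dp(16)1/Yey.

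**Figure D3:**
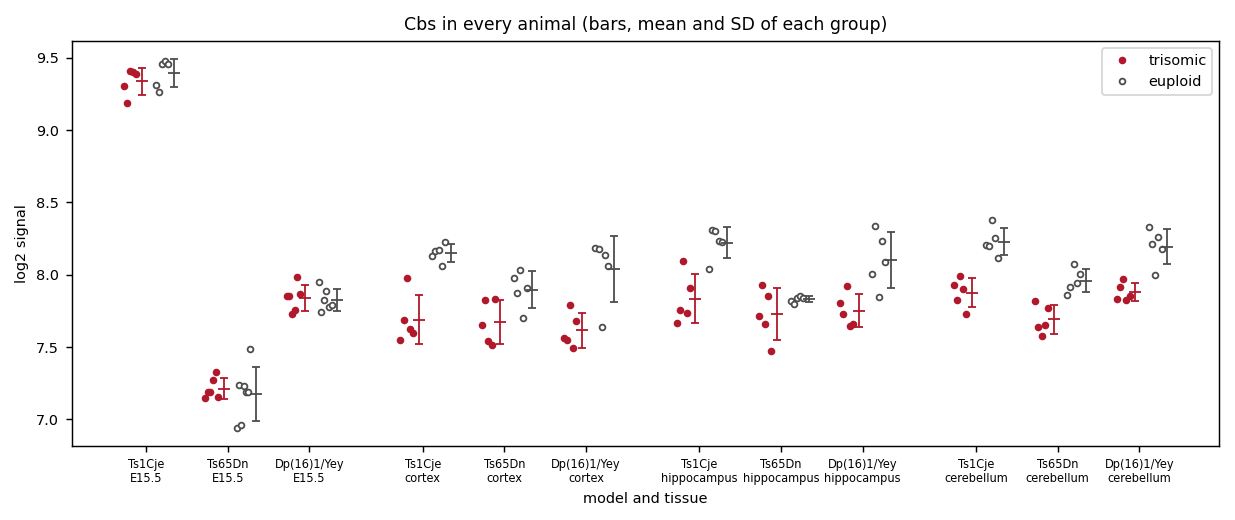
Log2 signal of Cbs in every animal of the 12 comparisons, with the trisomic group left of its euploid group and bars for the mean and SD. The groups do not overlap in Ts1Cje cortex or in the cerebellum of any model, and they lie at the same level in the E15.5 forebrain of all models.

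Averaged over the 3 models, Cbs fell by 0.37 on the log2 scale in cortex (SE 0.06, 95% confidence interval -0.48 to -0.26, fold change 0.774, limma adjusted P = 0.000147). In hippocampus it fell by 0.28 (SE 0.05, fold change 0.823, limma adjusted P = 0.00305), and in cerebellum by 0.31 (SE 0.04, fold change 0.805, limma adjusted P = 5.1e-06). In E15.5 forebrain the averaged change was 0.00 (95% confidence interval -0.08 to 0.08, limma adjusted P = 0.992). By its P value Cbs stood at rank 3 of the 55 probe sets called outside the triplicated segments in cortex, rank 13 of 117 in hippocampus and rank 2 of 128 in cerebellum. Without the arrays that stand apart the averaged changes were -0.37 in cortex, -0.32 in hippocampus and -0.31 in cerebellum, and all 3 were called.

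The age difference was tested as the averaged change in an adult region minus that in E15.5 forebrain, a contrast added after the data were seen. For Cbs it was -0.37 in cortex (limma adjusted P = 0.0110) and -0.31 in cerebellum (limma adjusted P = 0.00825), both called, where 0.033% and 0.0612% of all probe sets were called. In hippocampus it was -0.28 (limma adjusted P = 0.117, background 0.033%) and was not called. No other member passed in any of the 3 contrasts. Region, sex and animals changed along with age in these contrasts, so they cannot be told apart from it.

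Since the 3 regions of an animal are not separate samples, their mean was also taken for each animal, an alternative likewise added after the data were seen. The mean Cbs signal was 7.72, 7.75, 7.76, 7.76 and 8.02 in Ts1Cje trisomic animals, against 8.12, 8.18, 8.19, 8.22 and 8.28 in euploid animals. It was 7.59, 7.68, 7.69, 7.73 and 7.80 in Ts65Dn trisomic animals, against 7.83, 7.86, 7.89, 7.92 and 7.98 in euploid animals. It was 7.65, 7.73, 7.73, 7.73 and 7.90 in Dp(16)1/Yey trisomic animals, against 7.83, 8.11, 8.17, 8.21 and 8.24 in euploid animals. The groups were apart in Ts1Cje and Ts65Dn, and in Dp(16)1/Yey the highest trisomic animal lay above the lowest euploid one. Cbs fell in Ts1Cje by 0.40 (limma adjusted P = 0.000296, background 0.683%) and in Dp(16)1/Yey by 0.36 (limma adjusted P = 0.00127, background 0.65%), and was not called in Ts65Dn at -0.20 (limma adjusted P = 0.217, background 0.862%). Over the 3 models it fell by 0.32 (SE 0.04, limma adjusted P = 1.5e-06, background 1.55%), and Pde9a rose by 0.12 (limma adjusted P = 0.0499). By P value Cbs stood at rank 4 and Pde9a at rank 144 of the 243 probe sets called there outside the triplicated segments.

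Whether the Cbs change differed between models was tested directly and no difference was called. The largest was Ts1Cje minus Ts65Dn in hippocampus, -0.29 (95% confidence interval -0.55 to -0.02, limma adjusted P = 0.934). In cerebellum the same difference was -0.09 (95% confidence interval -0.28 to 0.11). Differences between adult regions within a model lay between -0.10 and 0.12 for Cbs, and none was called.

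Cbs is known in mouse brain from astrocytes and their precursors, so the astrocyte markers are given beside it. Of 9 markers, 0 were called in either direction in any of the 12 comparisons or in the averaged fit. Their median averaged change was -0.05 in cortex, 0.03 in hippocampus and -0.08 in cerebellum. Gja1, the astrocyte gap junction gene, had -0.09 in cortex and -0.14 in cerebellum (limma adjusted P = 0.583 and 0.314), and Gfap had -0.13 and -0.11. All 9 lay above the median signal of every adult table. In cerebellum the summed linear signal of the list ran from 17493 to 19787 in Ts1Cje trisomic animals and from 16202 to 20450 in euploid animals, from 16574 to 17389 in Ts65Dn trisomic and 16846 to 19641 in euploid animals, and from 17222 to 19045 in Dp(16)1/Yey trisomic and 17941 to 19550 in euploid animals. The ranges overlapped in each model. RNA came from whole tissue, so fewer cells of a type and less RNA per cell cannot be told apart, and the part of astrocytes in the Cbs change was not tested.

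Genes of the reactions around Cbs were followed in the same fits. Of 12 measured genes of transsulfuration, the folate cycle and vitamin B6 metabolism, 0 were called in the 12 comparisons. In the averaged fit 1 was called: Gclc, the catalytic subunit of the first enzyme of glutathione synthesis. Its change was -0.13 in cerebellum (limma adjusted P = 0.0790), where 0.956% of all probe sets were called. Cth, which cleaves the cystathionine that Cbs makes, had averaged changes from 0.02 to 0.06 with no call. The other metabolic members were Ftcd, a folate and histidine enzyme, Pdxk, which phosphorylates vitamin B6, Pfkl, the liver-type phosphofructokinase, Slc37a1, a sugar-phosphate transporter, and Ndufv3, a subunit of respiratory complex I. Only Pfkl had an unadjusted P under 0.05, in Ts1Cje E15.5 forebrain. There it had 10.32, 10.34, 10.42, 10.43 and 10.50 in trisomic embryos and 10.07, 10.22, 10.28, 10.29 and 10.37 in euploid embryos (0.16, limma adjusted P = 0.704), with 3 trisomic embryos above all euploid ones.

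Among signaling genes, Pde9a was the member with repeated higher values. It encodes a phosphodiesterase that hydrolyzes cyclic GMP. In Ts1Cje cortex it had 7.85, 7.85, 7.87, 8.01 and 8.05 in trisomic animals, against 7.64, 7.65, 7.71, 7.75 and 7.81 in euploid animals, without overlap (0.22, limma adjusted P = 0.713, and 0.20 without the array that stands apart). In Ts65Dn cortex it had 7.50, 7.71, 7.73, 7.75 and 7.81 in trisomic animals and 7.40, 7.49, 7.56, 7.58 and 7.63 in euploid animals (0.17, limma adjusted P = 0.765). In Dp(16)1/Yey cortex it had 7.43, 7.54, 7.55, 7.58 and 7.61 in trisomic animals and 7.26, 7.37, 7.40, 7.45 and 7.69 in euploid animals (0.11, limma adjusted P = 0.874). In Ts65Dn 4 of the 5 trisomic animals lay above every euploid animal, and in Dp(16)1/Yey the highest animal was a euploid one. Averaged over the models, Pde9a rose by log2 0.16 in cortex (SE 0.04, 95% confidence interval 0.08 to 0.25, fold change 1.12, limma adjusted P = 0.0836). By its P value Pde9a stood at rank 49 of the 55 probe sets called outside the triplicated segments in cortex. The cortex call was lost when any of 21 of the 65 animals was left out, with adjusted P between 0.0159 and 0.157.

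Outside the cortex Pde9a was not called. In Ts1Cje hippocampus it had 7.73, 7.75, 7.76, 7.88 and 7.91 in trisomic animals and 7.46, 7.57, 7.71, 7.72 and 7.73 in euploid animals (0.17, limma adjusted P = 0.733). In Dp(16)1/Yey hippocampus it had 7.56, 7.56, 7.62, 7.71 and 7.79 in trisomic animals and 7.30, 7.37, 7.49, 7.56 and 7.62 in euploid animals (0.18, limma adjusted P = 0.775). The first pair of groups did not overlap and the second did. The averaged change was 0.14 in hippocampus (limma adjusted P = 0.397), 0.04 in cerebellum and -0.01 in E15.5 forebrain. In Ts1Cje forebrain it had 10.14, 10.19, 10.28, 10.29 and 10.29 in trisomic embryos and 9.97, 10.05, 10.13, 10.18 and 10.22 in euploid embryos (0.13, limma adjusted P = 0.772), 3 of the 5 trisomic embryos above every euploid one.

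S100b had 8.98, 9.08, 9.08, 9.16 and 9.17 in Ts1Cje trisomic hippocampus, against 8.87, 8.89, 8.90, 8.93 and 8.96 in euploid hippocampus. The groups did not overlap (0.18, limma adjusted P = 0.427). In Ts65Dn hippocampus the change was also 0.18, but it rested on trisomic animal 18 at 9.52, and the other 4 trisomic animals lay at 8.71 to 8.90 against 8.60 to 8.83 in euploid animals. Without it and animal 5, the other array that stands apart, the change was 0.04. In Dp(16)1/Yey hippocampus the change was 0.10. Averaged over the models it was 0.15 in hippocampus (limma adjusted P = 0.531), and the astrocyte list that shares its cell type had a median of 0.03 there.

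Sik1, a salt-inducible kinase gene that neuronal activity switches on, had a change below zero in 11 of the 12 comparisons, and none was called. Mcm3ap and Pwp2 also had 11 changes below zero, and the adult regions came from the same animals. The share of all probe sets with that count is not given here. In Ts65Dn cortex Sik1 had 7.42, 7.44, 7.45, 7.62 and 7.68 in trisomic animals and 7.51, 7.69, 7.83, 7.85 and 7.92 in euploid animals (-0.23, limma adjusted P = 0.704). In Ts65Dn cerebellum it had 6.68, 6.79, 6.85, 6.94 and 7.00 in trisomic animals and 6.86, 6.95, 6.98, 7.15 and 7.27 in euploid animals (-0.19, limma adjusted P = 0.794). Both pairs of groups overlapped. Trpm2, a calcium-permeable channel gene, had no effect with an unadjusted P under 0.05.

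**Figure D4:**
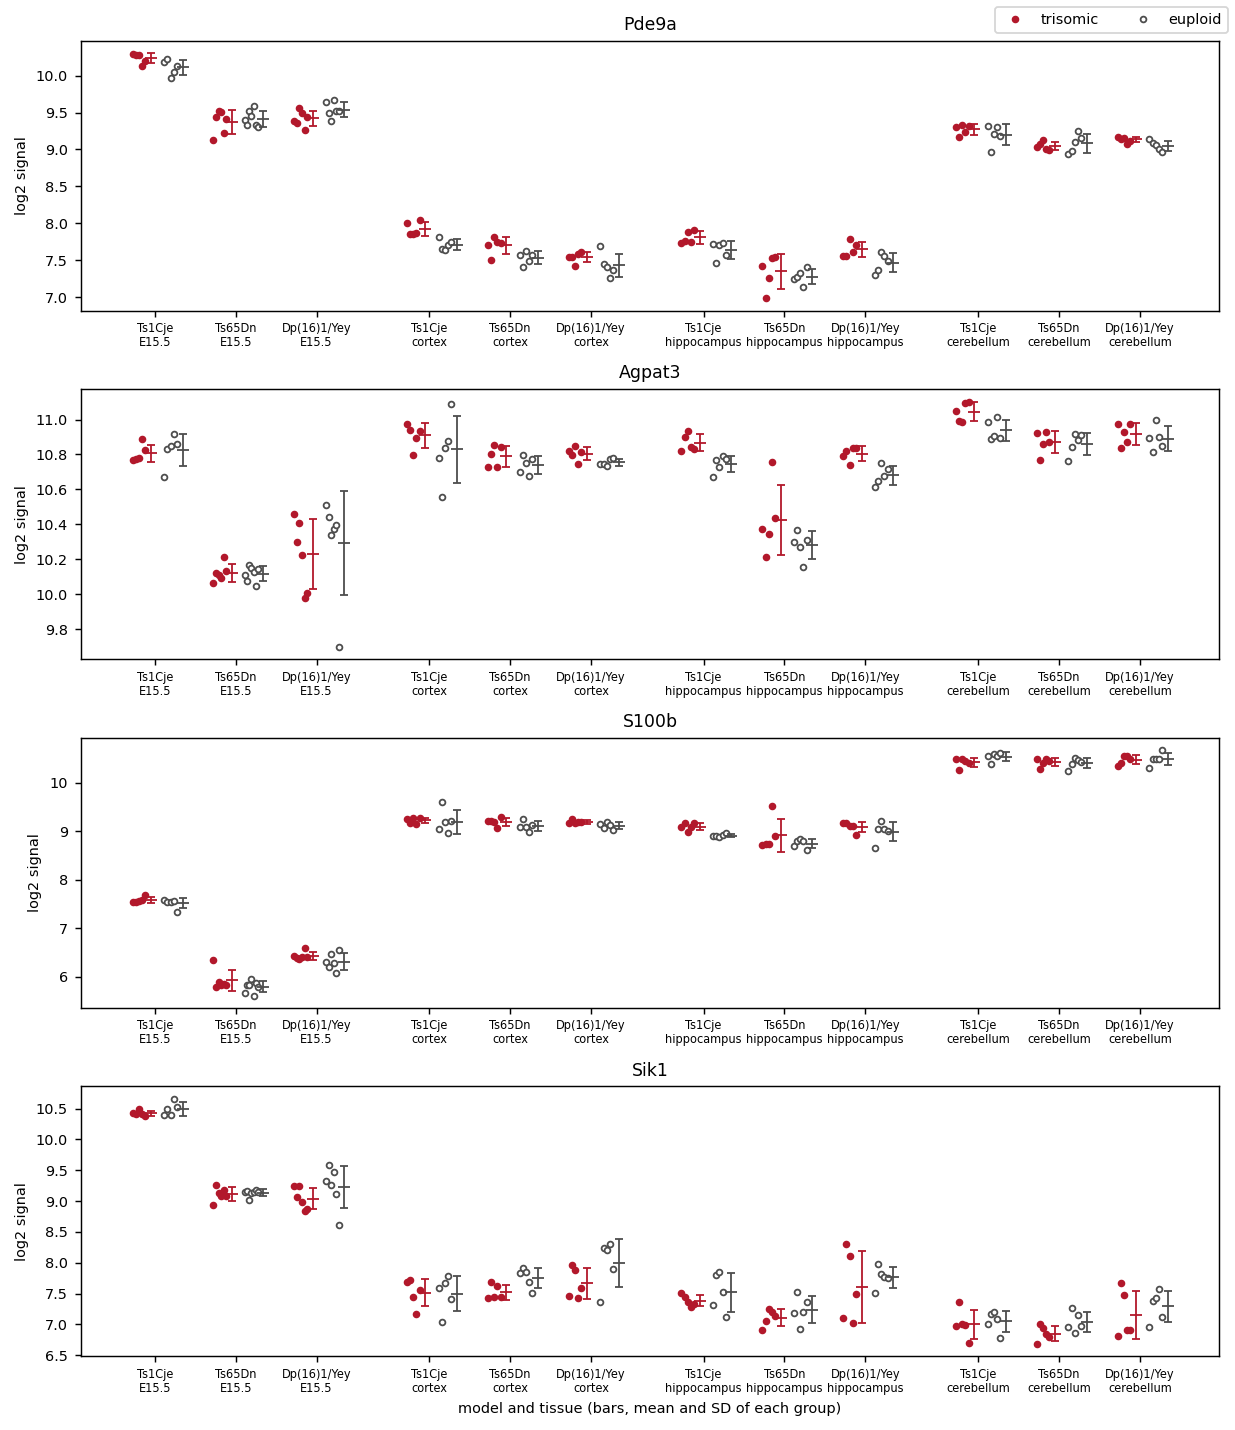
Log2 signal of Pde9a, Agpat3, S100b and Sik1 in every animal of the 12 comparisons, with the trisomic group left of its euploid group and bars for the mean and SD. Trisomic animals lie above all euploid animals for Pde9a in Ts1Cje cortex and hippocampus and for Agpat3 and S100b in Ts1Cje hippocampus, while the Sik1 groups overlap in both comparisons with an unadjusted P under 0.05. Of all probe sets, 10.3% had an unadjusted P under 0.05 in Ts1Cje hippocampus and 2.88% in Ts1Cje cortex.

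Of the 3 genes of lipid and sterol metabolism, Agpat3, an acyltransferase gene of phospholipid synthesis, was higher in all 9 adult comparisons. It was the only member with that pattern, which 1.73% of all probe sets had, and Cbs and Pwp2 were the only 2 members lower in all 9, against 1.2%. In Ts1Cje hippocampus Agpat3 had 10.82, 10.83, 10.84, 10.90 and 10.93 in trisomic animals and 10.67, 10.73, 10.77, 10.77 and 10.79 in euploid animals (0.12, limma adjusted P = 0.727). In Dp(16)1/Yey hippocampus it had 10.74, 10.79, 10.82, 10.83 and 10.84 in trisomic animals and 10.62, 10.65, 10.68, 10.72 and 10.75 in euploid animals (0.12, limma adjusted P = 0.785). The Ts1Cje groups did not overlap, and in Dp(16)1/Yey only the lowest trisomic animal reached the euploid range. The averaged change in hippocampus was 0.13 (limma adjusted P = 0.210) and was not called.

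Lss encodes lanosterol synthase. In Ts1Cje E15.5 forebrain it had 10.29, 10.42, 10.45, 10.46 and 10.48 in trisomic embryos and 10.22, 10.26, 10.28, 10.34 and 10.37 in euploid embryos (0.12, limma adjusted P = 0.725), with 4 trisomic embryos above all euploid ones. Abcg1, a sterol efflux transporter gene, had 9.57, 9.63, 9.68, 9.69 and 9.75 in Ts65Dn trisomic cerebellum and 9.49, 9.51, 9.51, 9.55 and 9.58 in euploid cerebellum (0.14, limma adjusted P = 0.747). Those groups overlapped only at 9.57 and 9.58. Of 15 measured genes of sterol synthesis and efflux, 0 were called in the 12 comparisons. Fdps, which makes farnesyl diphosphate upstream of Lss, was called in the averaged fit, at -0.20 in cortex (limma adjusted P = 0.0728, background 0.547%).

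Among the 4 genes of transcription, methylation and meiosis, Pknox1, a homeobox gene, had changes of opposite sign in 2 models at E15.5. In Ts1Cje forebrain it had 8.63, 8.65, 8.74, 8.74 and 8.75 in trisomic embryos, against 8.45, 8.49, 8.56, 8.60 and 8.60 in euploid embryos, without overlap (0.16, limma adjusted P = 0.432). Dp(16)1/Yey forebrain had lowest, median and highest values of 7.85, 8.17 and 8.33 in trisomic embryos and 7.99, 8.40 and 8.54 in euploid embryos (-0.26, limma adjusted P = 0.764). Euploid embryo 13 was the lowest of its group and the next was at 8.37. Without embryo 13 the change was -0.33, and without both arrays that stand apart it was -0.28. The difference between these models was 0.42 (95% confidence interval 0.19 to 0.64, limma adjusted P = 0.492). It had the lowest P of any member among the 12 differences between models, 0 of which were called for a member, and 0.0373% of all such differences passed.

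Prmt2, an arginine methyltransferase gene, had 9.03, 9.03, 9.04, 9.11 and 9.13 in Ts1Cje trisomic cortex and 9.16, 9.24, 9.25, 9.29 and 9.66 in euploid cortex. The groups did not overlap (-0.25, limma adjusted P = 0.736), and without the euploid array that stands apart the change was -0.17. Dip2a had 7.92, 7.94, 7.97, 8.14 and 8.39 in Ts65Dn trisomic hippocampus and 7.76, 7.77, 7.82, 7.83 and 7.89 in euploid hippocampus, again without overlap (0.26, limma adjusted P = 0.736). Without the 2 hippocampal arrays that stand apart the Dip2a change was 0.20. Hsf2bp, a meiotic recombination gene, had -0.14 in Ts1Cje hippocampus (limma adjusted P = 0.794), and -0.09 with 1 trisomic animal left out.

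The 8 genes of RNA processing and ribosome synthesis had 2 effects with an unadjusted P under 0.05. Pcbp3, a poly(C)-binding protein gene, had 9.00, 9.01, 9.02, 9.06 and 9.22 in Dp(16)1/Yey trisomic cortex and 9.18, 9.24, 9.27, 9.43 and 9.84 in euploid cortex (-0.33, limma adjusted P = 0.683). Only the highest trisomic animal entered the euploid range, and without the euploid animal at 9.84 the change was -0.22. U2af1 had 7.67, 7.82, 7.87, 8.03 and 8.04 in Ts1Cje trisomic cortex and 7.40, 7.53, 7.72, 7.78 and 7.81 in euploid cortex, which overlapped (0.24, limma adjusted P = 0.791, and 0.17 without the array that stands apart), and its other 11 changes lay between -0.08 and 0.07. Adarb1, an RNA-editing deaminase gene, Pwp2, Rrp1 and Rrp1b, of ribosomal RNA processing, Wdr4, of transfer RNA methylation, and Mcm3ap, of messenger RNA export, had no effect with an unadjusted P under 0.05 in the 12 comparisons. Of 11 measured genes of pre-rRNA processing and 8 of splicing and editing, 0 were called in either fit.

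Of the 5 matrix, adhesion and immune receptor genes, none was called, and single animals carried some of the largest values. Col6a2, a collagen VI chain gene, had a lowest, median and highest value of 7.37, 7.60 and 9.06 in Ts65Dn trisomic forebrain and 7.23, 7.55 and 7.70 in euploid forebrain, a change of 0.30 (limma adjusted P = 0.869). The value of 9.06 was that of embryo 01, whose 8 meningeal and fibroblast markers summed to 15491, against a median of 3813 over the other embryos of the table. Without it the change was 0.06. The part of meningeal tissue in it was not tested. In Dp(16)1/Yey forebrain Col6a2 had 7.50, 7.65 and 7.70 in trisomic embryos and 7.38, 7.47 and 7.54 in euploid embryos (0.15, limma adjusted P = 0.755), with 4 of 6 trisomic embryos above all euploid ones, and the change was 0.16 without the arrays that stand apart.

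Col18a1, whose product holds endostatin, had 6.03, 6.15, 6.19, 6.29 and 6.54 in Dp(16)1/Yey trisomic cortex and 6.37, 6.42, 6.46, 6.55 and 6.55 in euploid cortex (-0.23, limma adjusted P = 0.764). Icosl, the ligand of the T cell receptor ICOS, had 7.39, 7.40, 7.45, 7.48 and 7.49 in Ts1Cje trisomic cortex and 7.07, 7.08, 7.16, 7.25 and 7.55 in euploid cortex (0.22, limma adjusted P = 0.786, and 0.18 without the array that stands apart). Both pairs overlapped. Itgb2, the leukocyte integrin beta chain that microglia carry, had averaged changes of 0.13 in hippocampus and 0.13 in cerebellum (limma adjusted P = 0.416 and 0.615), and 0 of the 10 microglial markers were called there. Col6a1, the partner chain of Col6a2, had no effect with an unadjusted P under 0.05. Of 4 other collagens and 6 integrin and ICOS partners, 0 were called.

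The 7 genes of centrosome, trafficking and protein fate gave 2 effects with an unadjusted P under 0.05, both lower in Dp(16)1/Yey hippocampus: Pcnt, the pericentrin gene, at -0.14 (limma adjusted P = 0.784), and Cryaa, a lens chaperone gene, at -0.18 (limma adjusted P = 0.784). Pofut2, a fucosyltransferase gene, Pttg1ip, Sumo3, a ubiquitin-like modifier gene, Trappc10, of vesicle transport, and Cstb, a cathepsin inhibitor gene, had none. Of 4 genes of cathepsins, whose enzymes the Cstb product and related cystatins inhibit, Ctss was called higher. Its change was 0.52 in Ts1Cje cerebellum (limma adjusted P = 0.0262, background 0.429%). In the averaged fit it was 0.21 in hippocampus (limma adjusted P = 0.0509, background 0.857%). A further 18 HSA21 orthologs of MMU10 and MMU17 outside the list were looked up, 16 were measured and 0 were called in either fit.

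Differences between adult regions in the trisomic change were tested within each model. Of the members 0 were called, against 0.00707% of all such differences, and the count was also 0 with the animal as a block.

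In euploid animals the members differed in where they were high. The values of separately normalized tables are described here and not tested. Pde9a had a log2 signal of 9.05 to 9.20 in the cerebellum of the 3 lines, against 7.43 to 7.71 in cortex, a difference of 1.49 to 1.62. S100b was 1.30 to 1.38 above cortex in cerebellum, Col18a1 0.96 to 1.27, Icosl 0.61 to 0.86 and Adarb1 0.47 to 0.72. At the other end Col6a1 was 1.2 to 1.32 below cortex, followed by Pfkl, Sik1, Prmt2 and Itgb2. In all, 21 members were on average higher and 16 lower in cerebellum than in cortex.

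**Figure D5:**
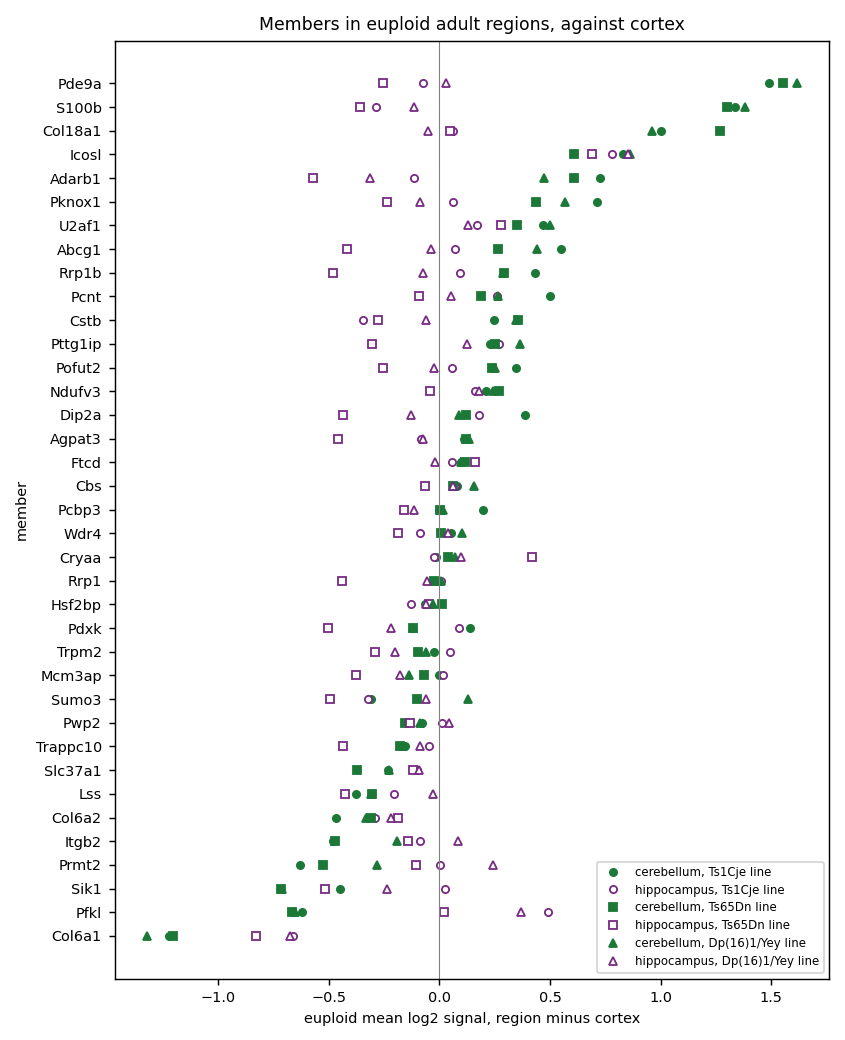
Mean log2 signal of each member in euploid cerebellum (filled) and hippocampus (open) minus that in cortex, for the 3 lines. Pde9a and S100b lie furthest above cortex in cerebellum, at 1.55 and 1.34 on average, and Col6a1 furthest below, at -1.25.

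Between ages, positions within the array were compared. S100b stood at percentile 30.4 on average in euploid E15.5 forebrain and at 86.7 in cortex, the widest gap, and Icosl and Adarb1 were likewise lower in rank in the embryo. Pde9a, Sik1 and Rrp1b stood higher in the embryo, Pde9a at 82.8 against 63.6 in cortex. Cbs stood at 57.1 in E15.5 forebrain, 71.1 in cortex, 72.9 in hippocampus and 72.7 in cerebellum, so that it was measured well inside the range of the array at both ages. In all 4 tissues 25 of the 37 members lay above the 50th percentile.

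Replicate animals varied little for most members. The median within-group SD was 0.101 in trisomic and 0.111 in euploid animals over the members, against 0.126 and 0.132 over all probe sets. By the median SD over the groups U2af1 varied most, at 0.179, then Sik1 at 0.174 and Col18a1. The highest SD in any group was 0.632, for Col6a2.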

How the data were processed

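RNA was measured in 128 arrays from 65 animals. The deposited values are log2 signals: the authors summarized the arrays by RMA with a custom chip definition of 1 probe set per gene, separately for each model and tissue. Of the 21225 probe sets, 20768 were named through RefSeq (GRCm38.p6) and 457 were not. Repeat arrays of an animal were averaged. The members and lists were chosen with earlier results of these data known.

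Trisomic minus euploid was fitted with limma 3.58.1 in R 4.3.3 (lmFit, eBayes), with Benjamini-Hochberg adjustment over the P values of a family of comparisons: the 12 comparisons, the averages over 3 models in 4 tissues, 12 differences between models and 6 between adult regions. Calls were made at an FDR below 10%. The scripts were tested on simulated data. Replicates are separate animals, and their number limits the precision.

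The text names members called in any fit; up to 3 per comparison with the lowest unadjusted P under 0.05; those under 0.05 in the same direction in 2 or more models of a tissue; those at the ends of the regional and age profiles; the 3 most variable; and 5 triplicated genes. Alternatives covered moderation, array weights, normalization, repeats, filters, sex, adjustment, thresholds, the animal as a block and each animal left out. The means over regions, the differences from E15.5 forebrain and the fit without 6 arrays were added after the data were seen.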

Additional observations from a re-analysis of the deposited data

Results flagged for a closer look

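Cbs had a larger averaged change in adult cortex than in E15.5 forebrain, with a difference of log2 changes of -0.37, and in adult cerebellum than in E15.5 forebrain, with a difference of -0.31. Both passed the test of the difference itself (limma adjusted P = 0.0110 and 0.00825). In adult hippocampus the difference was -0.28 (limma adjusted P = 0.117) and was not called. These contrasts were added after the data were seen, and region, sex and animals changed along with age.

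Single animals stood far from their group in 4 of the 56 groups of animals looked at, for the members whose animals are listed above; chance alone would give about 1 in 20. Cbs was at 7.64 in the cortex of 1 Dp(16)1/Yey euploid animal, and the nearest animal of its group was at 8.06. Pcbp3 was at 9.22 in the cortex of 1 Dp(16)1/Yey trisomic animal, nearest 9.06. Pknox1 was at 7.99 in Dp(16)1/Yey euploid embryo 13, nearest 8.37. Lss was at 10.29 in Ts1Cje trisomic embryo 12, nearest 10.42.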

How the results depend on the processing

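The 3 Cbs calls of the averaged fit held in all 8 alternatives and with each of the 65 animals left out, where the changes ran from -0.40 to -0.36 in cortex, -0.30 to -0.26 in hippocampus and -0.33 to -0.30 in cerebellum. The Pde9a call in cortex held in the 8 alternatives and was lost without any of 21 animals, its value running from 0.15 to 0.18 with an animal left out. In the 12 comparisons 0 of the 444 member effects were called, and this count of effects, not of genes, changed with the processing. It became 3 with an intensity trend, 2 with array weights, 1 with quantile normalization repeated and 1 with the first array of each animal. It became 3 with only probe sets above the median signal, 2 with adjustment within each comparison and 3 at an FDR below 20%. Apart from the adjustment within each comparison, all of these calls were of Cbs. The count of effects ran from 0 to 4 with an animal left out. It was 2 without the Ts1Cje trisomic animal with the highest cortical Cbs, and 4 without the Dp(16)1/Yey euploid animal with the lowest. Cbs in Ts1Cje was then called at -0.53 in cortex and -0.45 in hippocampus without that Ts1Cje animal, and in Dp(16)1/Yey at -0.53 in cortex and -0.36 in cerebellum without that Dp(16)1/Yey animal. The 35 effects with an unadjusted P under 0.05 became 6 with a fold change above 1.2 or below 0.8 as well. Member effects called for an adult region against E15.5 forebrain, 2 and both of Cbs, became 4 with array weights. Members called for a difference between models ran from 0 to 1, the 1 without Dp(16)1/Yey euploid embryo 13. The median change of the members became -0.0153 in Ts1Cje hippocampus with the first array of each animal, and ran from 0.0052 to 0.0331 in Ts65Dn cerebellum and -0.0386 to 0.024 in Dp(16)1/Yey cerebellum with an animal left out. For differences between adult regions, the same animals gave all regions; with the animal as a replicate block (consensus correlations 0.0611, 0.0768 and 0.0691) 0 members were called, as without the block. The cause of these shifts was not tested.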

Other observations

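Markers of other cell types were followed in the same fits. Averaged over the models, Kdr, an endothelial receptor gene, rose by log2 0.24 in hippocampus (limma adjusted P = 0.0081) and 0.22 in cerebellum (limma adjusted P = 0.0253). Dcn, a fibroblast gene, rose by 0.32 in cerebellum (limma adjusted P = 0.0185). Alas2, an erythroid heme synthesis gene, rose by 0.28 in hippocampus (limma adjusted P = 0.0677). Of all probe sets, 0.857% were called in hippocampus and 0.956% in cerebellum. These are single genes of lists with 11 endothelial and pericyte, 8 meningeal and fibroblast and 3 measured erythroid markers. They do not show a change of a cell type. The 8 choroid plexus markers had a median averaged change of -0.25 in cortex and -0.44 in hippocampus with 0 called. In Ts65Dn hippocampus their summed signal ran from 1122 to 10758 in trisomic animals and from 8338 to 10726 in euploid animals, with trisomic animal 18 at 1122. The cause of these values was not tested.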
